A study of Mus musculus with 10 samples.

Results

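The 9 genes described here encode the Sonic hedgehog ligand (*Shh*), its receptor and co-receptor (*Ptch1*, *Boc*), the signal transducer (*Smo*), a decoy receptor (*Hhip*), the Gli transcription factors (*Gli1*, *Gli2*, *Gli3*) and their cytoplasmic inhibitor (*Sufu*). They were chosen by gene symbol, and all 9 were found once among the 23230 features of the deposited expression matrix, across all 10 RNA-seq libraries. The libraries came from a mouse glioma model on the C57BL/6 strain, in which all cells shared the p16/p19 (*Ink4a/Arf*) knockout and a retroviral vector for human EGFRvIII, a constitutively active form of the epidermal growth factor receptor.

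Cultures of 3 kinds were sequenced, 1 library each and all below passage 10. AstroEGFR* (n = 3) were cortical astrocytes of postnatal day 5 with both lesions, from 3 independent batches numbered 1 to 3. PT (n = 4) were glioma propagating cells, cultured from the tumours that such astrocytes gave after transplantation into the brain of CD1 Nude mice. Batch 1 gave PT1 and PT4, batch 2 gave PT2 and batch 3 gave PT3. AstroEGFR* *Zfp423* (n = 3) were the same 3 astrocyte batches with a further viral vector for the zinc finger factor *Zfp423*, lentiviral by the sample labels and retroviral by the study's methods. Astrocytes were kept in serum, whereas PT were kept in serum-free medium with EGF and FGF2, so the tumour step and the medium cannot be told apart.

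In canonical Hedgehog signalling, the ligand binds Ptch1 with the help of co-receptors such as Boc, Cdon and Gas1, and this frees Smo to act in the primary cilium. Active Smo releases the Gli factors from Sufu and from the processing that turns Gli3, and in part Gli2, into repressors. *Gli1*, *Ptch1* and *Hhip* are themselves transcribed in response to Gli activators, which makes them common readouts of the pathway. In the nervous system *Shh* patterns the ventral neural tube, drives division of neural progenitors and guides axons.

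The values were FPKM, fragment counts scaled to transcript length and library size, the scale on which levels of different genes are set side by side here. Single genes can be misestimated on it: *Gapdh*, which all cells use, was listed between 0.0106 and 50.1 FPKM, so the order of the genes by level is only approximate. As this spread lies between libraries, the difference of a single gene between libraries can be misestimated too. Between 6200 and 9155 of the features were listed at 0 in a library, most in PT3 (9155) and AstroEGFR*3 (8417). *Zfp423* stood at 4.30, 3.25 and 3.48 FPKM in AstroEGFR*1 to 3 and at 15.7, 9.73 and 105 FPKM in the matching *Zfp423* cultures, higher in 3 of 3 batches. *Cdkn2a*, the p16/p19 locus, was listed at 3.96 to 130 FPKM, a value for the whole gene that does not resolve the deleted exons and so checks nothing. The astrocyte markers summed to 509 to 1048 FPKM in AstroEGFR*, 352 to 921 FPKM in PT and 59.4 to 904 FPKM in AstroEGFR* *Zfp423*. The lowest sum was that of AstroEGFR*2 *Zfp423*, where *Gfap* stood at 1.11 FPKM and *Aqp4* at 0.0266 FPKM. The 7 microglia markers, at most 10.5 FPKM in sum in every AstroEGFR* and PT library, summed to 1445 FPKM in AstroEGFR*1 *Zfp423* and 818 FPKM in AstroEGFR*2 *Zfp423*, against 0.0741 FPKM in AstroEGFR*3 *Zfp423*.

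**Figure D1:**
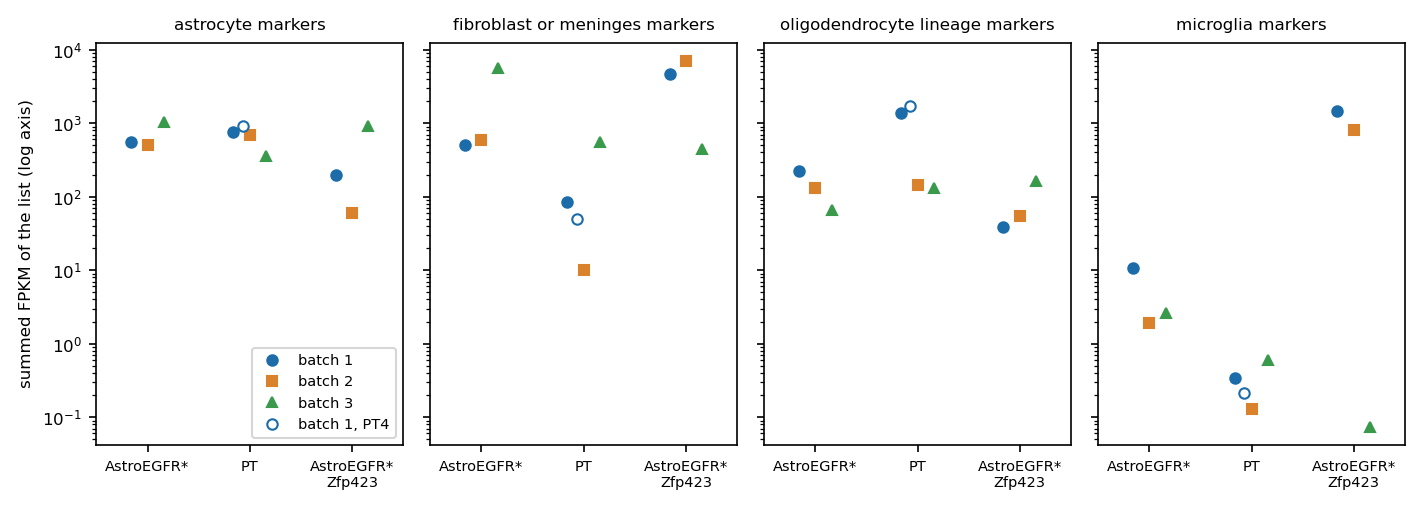
Summed FPKM of the astrocyte, fibroblast or meninges, oligodendrocyte lineage and microglia markers (vertical log axis) in each library, by group; colours and symbols mark the astrocyte batch and the open circle is PT4. The microglia sum of the first 2 *Zfp423* cultures, 1445 and 818 FPKM, stands apart from the other 8 libraries, and the fibroblast sum runs from 10.2 to 7056 FPKM.

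*Smo* had the highest mean of the 9 genes in each of the 3 groups, at 50.4 FPKM in AstroEGFR*, 50.4 FPKM in PT and 49.6 FPKM in AstroEGFR* *Zfp423*. In AstroEGFR* the means then ran through *Shh* (43.6 FPKM), *Ptch1* (25.5 FPKM), *Gli3* (13.9 FPKM), *Boc* (13.3 FPKM), *Sufu* (7.86 FPKM), *Gli1* (6.51 FPKM) and *Gli2* (3.63 FPKM) to *Hhip* (0.174 FPKM). Among neighbours in this order, the libraries of *Ptch1* and *Gli3* and those of *Gli2* and *Hhip* did not overlap, and the other neighbours did. The place of *Shh* rested on AstroEGFR*1, where it was the highest of the 9 genes at 113 FPKM, whereas in AstroEGFR*2 it was the fourth and in AstroEGFR*3 the eighth. In PT, *Shh* had the eighth mean, at 0.314 FPKM, and *Smo* was clear of *Ptch1*, the next gene, in every library. Order within AstroEGFR* *Zfp423* was loose, since all neighbours except *Gli2* and *Hhip* overlapped.

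**Figure D2:**
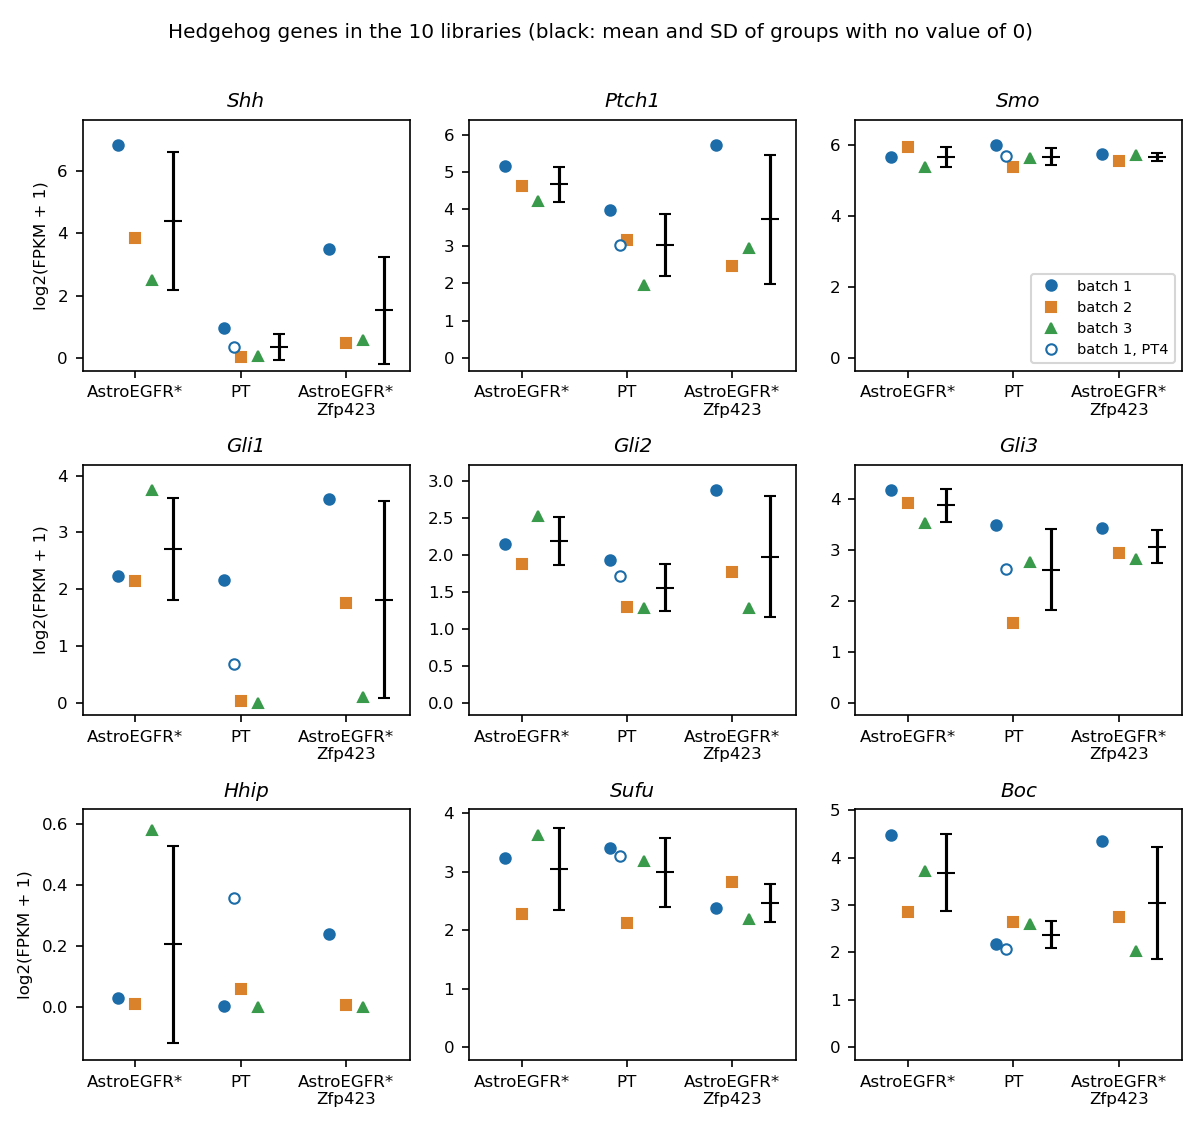
Level of each of the 9 genes as log2(FPKM + 1) (vertical axis, own scale for each gene) in the libraries of the 3 groups; colours and symbols mark the astrocyte batch, the open circle is PT4, and the black bar gives the mean and SD of a group without a value of 0. *Shh*, *Ptch1*, *Gli3* and *Boc* do not overlap between PT and AstroEGFR*, and *Smo* lies between 40.7 and 62.5 FPKM in all 10 libraries.

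The first comparison asked how Hedgehog genes differed between the tumorigenic astrocytes and the glioma cells they gave rise to. The ligand, its receptor, a co-receptor and a Gli factor were lower in every PT library than in any AstroEGFR* library, whereas *Smo* and *Sufu* overlapped between the groups. *Shh* was listed below 1 FPKM in every PT library. None of the 8 genes above the limit of a mean of 1 FPKM passed the adjusted threshold (limma, adjusted p under 0.05), beside 1.24% of all features. With the astrocyte batch as a block, *Shh* and *Ptch1* passed it as lower in PT, 2 of the 8, where 3.87% of all features were called and 2.68% were called lower. Before adjustment, 5 of the 8 passed, all of them lower in PT (*Shh*, *Ptch1*, *Boc*, *Gli1* and *Gli3*), beside 7.69% of all features lower at that limit. The median log2 fold change of the 8 genes was -1.29 and that of all features 0.03.

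*Shh* stood at 113, 13.5 and 4.62 FPKM in AstroEGFR*1, 2 and 3. In PT1, 2, 3 and 4 it stood at 0.919, 0.00703, 0.0471 and 0.284 FPKM. The groups did not overlap, and the spread among the astrocyte batches was itself 24.4-fold. On the log2(FPKM + 1) scale used for all tests, which understates changes of low values, the AstroEGFR* mean was 4.39 ± 2.22 (SD, n = 3) and the PT mean 0.34 ± 0.43 (SD, n = 4). The log2 fold change was -4.05 (SE 0.92), with an adjusted p of 0.0973 in limma and a two-sided exact permutation p of 0.0286, the smallest that 35 splits allow. These splits ignore the batches, and a two-sided sign-flip over 3 batch pairs, with PT1 and PT4 averaged, could not go below 0.25. This fold change was the 35th lowest of 12261. Measured against the parent batch, the difference was -5.89 for PT1, -6.47 for PT4, -3.84 for PT2 and -2.43 for PT3. A fit blocked by batch gave a log2 fold change of -4.35 (SE 0.72, adjusted p = 0.0419 by limma), in a range of adjusted p over all alternatives from 0.0419 to 0.211. With a pseudocount of 0.1 in place of 1 the log2 fold change was -6.11 (adjusted p = 0.0617), and with 1 library left out it ran from -5.00 without AstroEGFR*3 to -2.83 without AstroEGFR*1.

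*Ptch1*, the receptor that holds Smo inactive and is induced by Gli activators, read 35.02, 23.6 and 17.7 FPKM in AstroEGFR*1 to 3. In PT1 to PT4 it read 14.8, 7.98, 2.88 and 7.19 FPKM. Each PT library was below the lowest astrocyte library. The log2 fold change was -1.64 (SE 0.48, limma adjusted p = 0.175; exact permutation p = 0.0571, two-sided), and -1.78 (SE 0.30, adjusted p = 0.0432) with the batch as a block, where adjusted p over the alternatives reached 0.506. PT was lower than its own parent in 4 of 4 libraries, by differences from -1.19 in PT1 to -2.27 in PT3.

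*Boc*, a cell surface co-receptor that binds the ligand together with Ptch1, read 21.4, 6.23 and 12.2 FPKM in AstroEGFR*1 to 3. In PT1 to PT4 the values were 3.56, 5.25, 5.02 and 3.23 FPKM. The groups did not overlap, but the gap in batch 2 was small, with a difference of -0.21 on the log2 scale for PT2 against -2.30 and -2.40 for PT1 and PT4. The log2 fold change was -1.31 (SE 0.40, limma adjusted p = 0.202; exact permutation p = 0.0286, two-sided).

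*Smo*, the membrane protein that transmits the signal, read 50.0, 60.5 and 40.7 FPKM in AstroEGFR*1 to 3. In PT1 to PT4 the values were 62.5, 40.8, 48.2 and 50.3 FPKM. The groups overlapped throughout, and the log2 fold change of 0.00 had a 95% confidence interval from -0.57 to 0.57 (limma, adjusted p = 0.998).

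*Hhip*, a membrane protein that sequesters the ligand and a Gli target, was at or under 0.495 FPKM in every library and below the limit for the test. Its highest value was in AstroEGFR*3 and the next, 0.280 FPKM, in PT4.

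*Gli1*, the activator whose transcription is the standard readout of the pathway, read 3.69, 3.42 and 12.4 FPKM in AstroEGFR*1 to 3. PT1 had 3.48 FPKM, PT2 0.0151 FPKM and PT4 0.591 FPKM, and in PT3 it was listed at 0. PT1 lay within the astrocyte range and the other 3 PT libraries were below it. The log2 fold change was -1.99 (SE 0.65, limma adjusted p = 0.236; exact permutation p = 0.0857, two-sided). It was -2.48 (adjusted p = 0.133) without PT1, -1.47 (0.512) without AstroEGFR*3 and -1.24 (0.622) without AstroEGFR*3 and PT3. With a pseudocount of 0.1 it was -3.74 (0.264). The batches were in different orders for ligand and readout, since AstroEGFR*3 had the lowest *Shh* and the highest *Gli1* of the 3 astrocyte cultures.

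*Gli2*, the main activator downstream of Smo, read 3.42, 2.68 and 4.77 FPKM in AstroEGFR*1 to 3. In PT1 to PT4 the values were 2.80, 1.46, 1.42 and 2.29 FPKM. Only PT1 reached into the astrocyte range, above AstroEGFR*2, and the log2 fold change was -0.63 (SE 0.32, limma adjusted p = 0.448; exact permutation p = 0.0857, two-sided). Without AstroEGFR*3 and PT3 it was -0.37 (limma adjusted p = 0.805). *Gli3*, which acts mainly as a repressor, read 17.0, 14.1 and 10.5 FPKM in AstroEGFR*1 to 3. In PT1 to PT4 it read 10.2, 1.96, 5.80 and 5.16 FPKM. The groups did not overlap, although PT1 and AstroEGFR*3 were close together. The log2 fold change of *Gli3* was -1.26 (SE 0.45, limma adjusted p = 0.278; exact permutation p = 0.0571, two-sided).

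*Sufu*, which tethers Gli factors in the cytoplasm, read 8.36, 3.85 and 11.4 FPKM in AstroEGFR*1 to 3. In PT1 to PT4 it read 9.53, 3.35, 8.04 and 8.56 FPKM. The groups overlapped, with the library of batch 2 the lowest in both, and the log2 fold change was -0.06 with a 95% confidence interval from -1.07 to 0.96 (limma, adjusted p = 0.972).

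Altogether 4 of the 8 genes above the limit (*Shh*, *Ptch1*, *Gli3* and *Boc*) did not overlap between the groups with PT lower, beside 7.81% of all features. Markers of fibroblasts or meninges moved the same way: 8 of 8 were lower in PT, with sums of 509 to 5581 FPKM in AstroEGFR* and 10.2 to 558 FPKM in PT, ranges that just overlapped. Their median log2 fold change was -3.66, 6 of the 8 passed before adjustment and none passed the adjusted threshold. The oligodendrocyte lineage markers summed to 66.8 to 223 FPKM in AstroEGFR* and to 131 to 1689 FPKM in PT. The part of these cell types in the Hedgehog values was not tested, and in such bulk libraries fewer cells of a type and less RNA per cell cannot be told apart.

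**Figure D3:**
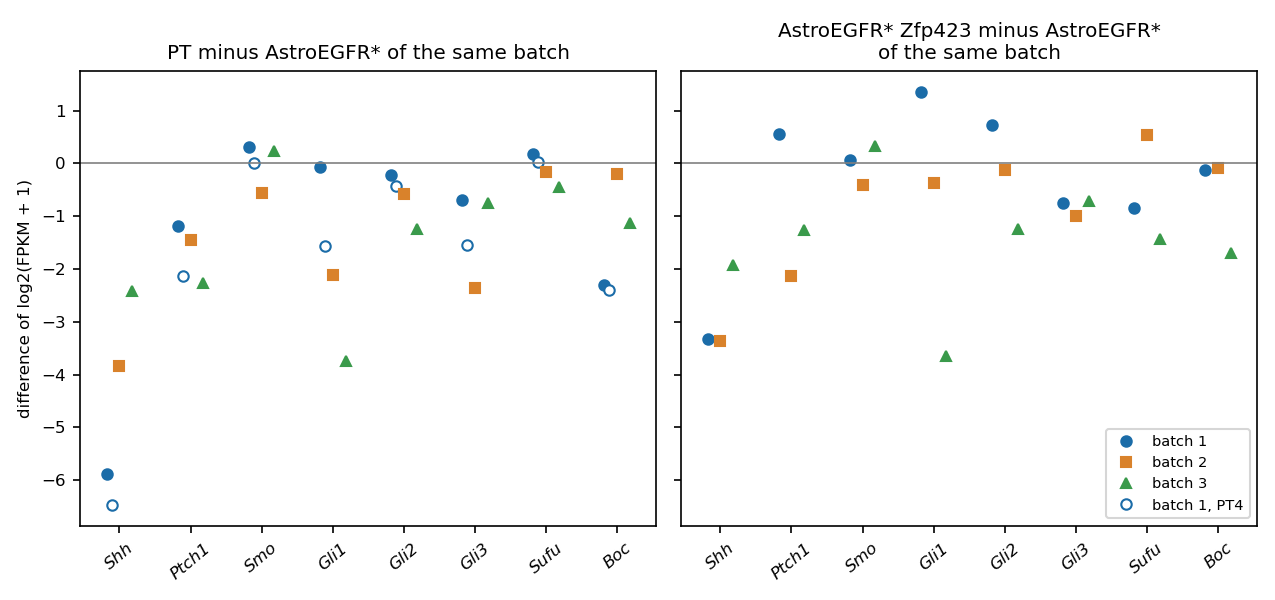
Difference of log2(FPKM + 1) between a PT library (left) or a *Zfp423* culture (right) and the AstroEGFR* library of its own batch, for the 8 genes above the limit of the test; 0 is no difference, colours and symbols mark the batch, and the open circle is PT4. *Shh* lies below 0 in all 7 pairs, from -6.47 to -1.93, while *Gli1* with the *Zfp423* vector runs from 1.35 in batch 1 to -3.64 in batch 3.

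Promoters of the Hedgehog genes were read from RefSeq (build GRCm38.p6) as 300-base windows around 1 start per gene, and 6 of the 9 genes had an entry. The consensus Gli binding site GACCACCCA, searched on both strands, was in none of these 6 windows and in 0.253% of all 32851. Its core CCACCC, which the longer site contains, was in the windows of *Gli2*, *Gli3*, *Hhip* and *Smo*, 4 of 6, and in 31.5% of all windows. The 250 bases before the start are shown for *Ptch1*, *Gli2* and *Gli3*, a receptor and Gli factors whose means were lower in PT. Capitals mark the core or its reverse complement GGGTGG, each sequence runs 5′ to 3′ on the strand of the gene, and the windows describe letters, not bound sites.
Ptch1, chr13:63565736-63565985, minus strand: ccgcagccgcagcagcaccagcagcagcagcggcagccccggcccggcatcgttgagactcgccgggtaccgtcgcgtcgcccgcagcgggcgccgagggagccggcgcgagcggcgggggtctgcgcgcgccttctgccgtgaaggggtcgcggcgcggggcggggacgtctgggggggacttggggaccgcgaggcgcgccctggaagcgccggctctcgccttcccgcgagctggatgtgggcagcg
Gli2, chr1:119053620-119053869, minus strand: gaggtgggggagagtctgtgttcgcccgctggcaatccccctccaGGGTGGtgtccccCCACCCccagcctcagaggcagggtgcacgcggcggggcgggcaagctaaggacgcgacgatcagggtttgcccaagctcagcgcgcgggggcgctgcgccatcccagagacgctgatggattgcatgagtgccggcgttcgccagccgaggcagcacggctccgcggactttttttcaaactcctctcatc
Gli3, chr13:15463473-15463722, plus strand: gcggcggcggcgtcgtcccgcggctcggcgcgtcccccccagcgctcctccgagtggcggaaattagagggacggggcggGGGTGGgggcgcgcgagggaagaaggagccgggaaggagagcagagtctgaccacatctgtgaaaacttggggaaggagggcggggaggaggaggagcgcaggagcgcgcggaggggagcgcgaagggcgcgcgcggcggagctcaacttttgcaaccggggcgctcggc
*Gli2* held 2 cores, in opposite orientations, *Gli3* held 1, and the *Ptch1* window held none.

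Further genes of the pathway were read from 3 lists. Of 16 genes of ligand release and reception, 10 were above the limit, and *Scube3*, a secreted glycoprotein of a family that takes part in ligand release, was lower in PT with an adjusted p of 0.00525 (limma), beside 0.922% of all features lower at that limit. *Scube3* read 10.8, 8.78 and 13.5 FPKM in AstroEGFR*1 to 3 and 0.114, 0.04996, 0.125 and 0.245 FPKM in PT1 to PT4. The groups were far apart, at a log2 fold change of -3.39 (SE 0.29), or -5.62 (adjusted p = 0.0151) with a pseudocount of 0.1. With the batch as a block, the co-receptor gene *Gas1* (log2 fold change 0.81, adjusted p = 0.0490) and the endocytic receptor gene *Lrp2* (-1.91, adjusted p = 0.0300) passed as well, beside 1.19% of all features called higher and 2.68% called lower in that fit, *Gas1* as higher in PT. Without AstroEGFR*1, or without both libraries of batch 3, no gene of this list passed.

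Of 29 genes of the cilium and of Gli processing, all were above the limit and 1 was called, as higher in PT, beside 0.318% of all features called higher. *Prkacb*, a catalytic subunit of protein kinase A, the kinase that primes Gli factors for processing, rose in PT from 61.3, 55.2 and 42.0 FPKM in AstroEGFR*1 to 3 to 138, 142, 120 and 156 FPKM in PT1 to PT4. Every PT library was above every astrocyte library, at a log2 fold change of 1.39 (SE 0.24, limma adjusted p = 0.0411). The call was lost whenever any 1 library or batch 3 was left out, with all 10 libraries in 1 fit and with PT1 and PT4 averaged. The ciliary list had a median log2 fold change of -0.18, with 12 genes higher and 17 lower. With the batch as a block, *Spop*, an adaptor of a ubiquitin ligase that acts on Gli proteins, passed as lower (-0.93, adjusted p = 0.0487), which with *Prkacb* made 2 of 29 beside 3.87% of all features called in that fit.

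Of 22 genes known as Gli targets in other settings, 21 were found and 13 were above the limit. *Sfrp1*, a secreted inhibitor of Wnt signalling, fell in PT, from 86.0, 92.5 and 41.4 FPKM in AstroEGFR*1 to 3 to 5.90, 0.821, 1.31 and 4.30 FPKM in PT1 to PT4. The groups did not overlap, and the log2 fold change was -4.32 (SE 0.54, limma adjusted p = 0.0145), beside 0.922% of all features called lower. Among the targets 11 were lower and 2 higher, with a median log2 fold change of -0.36 beside 0.03 for all features, and 4 of the 13 passed before adjustment, all lower, beside 7.69% of all features lower at that limit. Without AstroEGFR*1, without both libraries of batch 3, and with all 10 libraries in 1 fit, no target passed. Without AstroEGFR*2, *Igfbp6*, a binding protein for insulin-like growth factors, passed as well (-4.71, adjusted p = 0.0377).

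**Figure D4:**
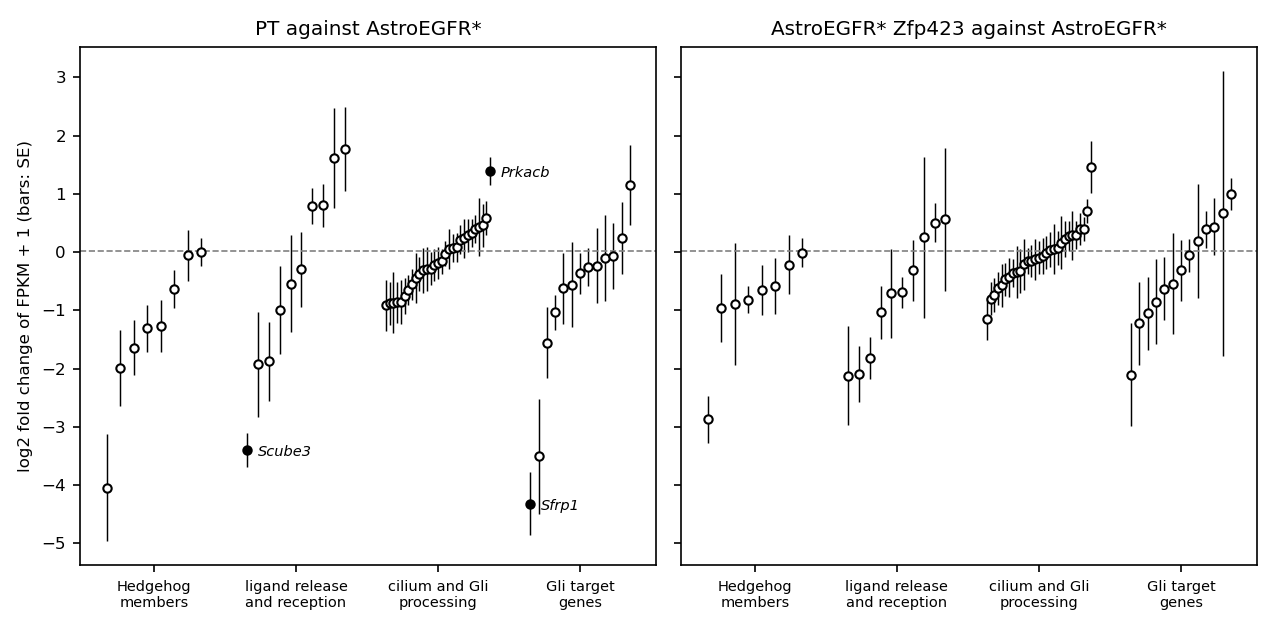
Log2 fold change of FPKM + 1 with its SE (vertical axis) for the tested genes of 4 lists, PT against AstroEGFR* (left) and AstroEGFR* *Zfp423* against AstroEGFR* (right); each point is a gene, filled where its adjusted p is under 0.05, and the dashed line is the median of all features. *Scube3*, *Prkacb* and *Sfrp1* are filled on the left, no point is filled on the right, and *Shh* is the lowest of the Hedgehog members in both panels, at -4.05 and -2.87.

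The second comparison asked how the same genes differed with the *Zfp423* vector in each astrocyte batch. *Shh*, *Gli3* and *Boc* were lower in the *Zfp423* culture in 3 of 3 batches, and *Ptch1*, *Gli1* and *Gli2* were higher in batch 1 and lower in batches 2 and 3. No member passed the adjusted threshold, nor did any of the 12366 features (limma with the batch as a block, 0% of features), while 913 of them (7.38%) passed before adjustment. All 8 members above the limit had a log2 fold change below 0, as did 5969 of the 12366 features, with a median of -0.73 beside 0.02 for all features. That of *Smo* was only -0.01 and changed sign under 2 of 9 alternatives. Without batch 3, *Gli1* (0.49) and *Gli2* (0.31) were above 0. *Shh* and *Gli3* passed before adjustment, beside 4.08% of all features lower at that limit. The AstroEGFR* libraries also served the first comparison, so the 2 sets of fold changes are not independent. Pairs were set by the numbers in the titles, which the correlations between libraries did not bear out in batches 2 and 3.

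*Shh* stood at 10.4, 0.404 and 0.478 FPKM in the *Zfp423* cultures of batches 1, 2 and 3, beside 113, 13.5 and 4.62 FPKM in their parents. The parent exceeded the *Zfp423* culture 10.9-fold, 33.3-fold and 9.67-fold. On the log2 scale the differences were -3.32, -3.36 and -1.93, with a log2 fold change of -2.87 (SE 0.41, unadjusted p = 0.00177 and adjusted p = 0.628 by limma). A two-sided exact sign-flip permutation gave 0.25, the smallest p that 3 pairs allow. The fold change was the 20th lowest of 12366, and adjusted p ranged from 0.106 to 1.00 over the alternatives. The microglia markers summed to 0.0741 FPKM in the *Zfp423* culture of batch 3, with *C1qa*, *C1qb*, *Tyrobp*, *Aif1* and *Itgam* listed at 0. The part of cell type content in the *Shh* values was not tested in any batch.

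*Gli3* read 9.75, 6.62 and 6.05 FPKM in the *Zfp423* cultures of batches 1 to 3, beside 17.0, 14.1 and 10.5 FPKM in their parents. The 2 groups did not overlap, and the 3 differences of -0.75, -0.99 and -0.70 were close to each other. The log2 fold change was -0.81 (SE 0.23, unadjusted p = 0.0226 and adjusted p = 0.628 by limma). *Boc* read 19.4, 5.76 and 3.06 FPKM, so that the difference was small in batches 1 and 2 (-0.13 and -0.10) and larger in batch 3 (-1.70). Being lower in all 3 batches, as these 3 of 8 members were, was seen for 15.2% of all features.

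*Ptch1* read 51.7 FPKM in AstroEGFR*1 *Zfp423*, the highest value of the gene in the series, and 4.58 and 6.82 FPKM in the *Zfp423* cultures of batches 2 and 3. The differences from the parent were 0.55, -2.14 and -1.26. *Gli1* followed the same signs, with 10.97, 2.39 and 0.0728 FPKM and differences of 1.35, -0.38 and -3.64. *Gli2* did so as well, with 6.35, 2.39 and 1.43 FPKM and differences of 0.73, -0.12 and -1.25. Higher in batch 1 and lower in the other 2 was the pattern of 6.87% of all features, and with 1 pair per batch no test of the batches against each other was possible. Batch 1 with the vector thus had less *Shh* than its parent but more *Ptch1*, *Gli1* and *Gli2*, whereas in batches 2 and 3 all 4 genes were lower than in the parent.

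The astrocyte markers were lower with the vector on average over the batches: 8 of 8 had a log2 fold change below 0, with a median of -1.77 beside 0.02 for all features. Of them 3 passed before adjustment, beside 4.08% of all features lower at that limit. Some were higher in single batches: *Aldh1l1* (127 to 356 FPKM), *Aldoc* (15.3 to 33.1 FPKM) and *Gja1* (85.0 to 91.1 FPKM) in batch 3, and *S100b* (1.91 to 6.99 FPKM) in batch 1. Their sum went from 552 to 199 FPKM in batch 1, from 509 to 59.4 FPKM in batch 2 and from 1048 to 904 FPKM in batch 3. The batches also differed in their other marker content. The fibroblast or meninges sum went from 509 to 4621 FPKM in batch 1 and from 588 to 7056 FPKM in batch 2 with the vector, but from 5581 to 447 FPKM in batch 3. In batch 1, with a higher sum, *Ptch1*, *Gli1* and *Gli2* were higher and *Shh*, *Gli3* and *Boc* lower. All of these genes were lower in batch 2, where the sum was higher, and in batch 3, where it was lower. All 7 microglia markers were higher in the *Zfp423* cultures of batches 1 and 2 than in any other library. The part of these markers in the Hedgehog values was not tested.

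*Smo* read 52.1, 45.4 and 51.3 FPKM with the vector, within the range of the parents, and its log2 fold change of -0.01 had a 95% confidence interval from -0.68 to 0.67. *Sufu* read 4.18, 6.07 and 3.56 FPKM, lower than the parent in batches 1 and 3 and higher in batch 2, at a log2 fold change of -0.58 with an interval from -1.89 to 0.72 and a range from -1.15 without batch 2 to -0.15 without batch 3. *Hhip* was at 0.182 FPKM in batch 1, at 0.00420 FPKM in batch 2 and listed at 0 in batch 3. Neither tested gene of the pair passed the threshold.

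In the wider lists no gene was called with the *Zfp423* vector, and 2 of 10 tested genes of release and reception, 4 of 29 of the cilium list and 1 of 13 targets passed before adjustment, beside 7.38% of all features. The 3 largest fold changes of release and reception were those of the glypicans *Gpc6* (-2.12, SE 0.84) and *Gpc4* (-2.10, SE 0.48), cell surface proteoglycans, and of *Scube3* (-1.82, SE 0.36). *Scube3* read 3.99, 0.778 and 3.30 FPKM, lower than the parent in each batch and above every PT library. In the cilium list they were those of *Arrb2*, a beta-arrestin (1.47), *Spop* (-1.15) and *Tulp3*, a ciliary trafficking adaptor (-0.80). *Arrb2* read 43.3 and 40.1 FPKM in batches 1 and 2, the libraries with the microglia markers, and 9.97 FPKM in batch 3. Among the targets they were *Sfrp1* (-2.10), *Nkx2-2*, a ventral neural tube factor (-1.22), and *Tbx2*, a T-box factor (-1.05).

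Over the 10 libraries, the features whose log2(FPKM + 1) profile was most like that of *Shh* among 12476 were *Sema3b* (Pearson r = 0.975), *St8sia2* (0.972), *Peli3* (0.969), *Dgkg* (0.968) and *Iqcg* (0.967). *St8sia2*, a polysialyltransferase, read 49.0, 8.17 and 4.07 FPKM in AstroEGFR*1 to 3 and at most 1.21 FPKM in PT. Of the other members, *Ptch1* was the nearest to *Shh*, in place 155 with r = 0.830. For *Gli1* the most similar profile was that of *Gli2* (r = 0.957), followed by *D18Ertd653e* (0.921), *Cdh24* (0.917), *Bicc1* (0.915) and *Fam165b* (0.915). *Shh* was in place 998 for *Gli1*, with r = 0.609. These correlations are descriptions, since the 10 points share 3 astrocyte batches and 3 groups.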

How the data were processed

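RNA-seq had been performed on 10 cultures. Libraries were made from 1 μg of total RNA with a TruSeq kit per the labels, and with RiboZero and stranded kits by the study's methods. Per the submitters' processing notes the authors used TopHat 1.3, Cuffnorm and mm9, and deposited 1 matrix of FPKM, normalized to feature length and library size. It holds no read counts. From steps in low values, AstroEGFR*3 had 0.0718 of the depth of PT1 and the others 0.500 to 1 of it, except that for PT3 the estimate was not stable.

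Groups and batches came from the sample titles. The batch of PT4 was read from a chart in the study, which sets PT1 and PT4 beside AstroEGFR*1, and the within-batch values and blocked fits of PT rest on it. Features averaging at least 1 FPKM over the libraries compared were fitted as log2(FPKM + 1) with limma 3.58.1 (R 4.3.3), with empirical Bayes and a mean-variance trend, two-sided, Benjamini-Hochberg adjusted over all features: 12261 for PT (no block) and 12366 for *Zfp423* (batch as a block). The fit was tested on simulated data. Deviations of same-batch AstroEGFR* and PT libraries correlated at 0.347 to 0.500, so the numbers pair them. Those of same-batch AstroEGFR* and *Zfp423* libraries correlated at 0.251, -0.108 and -0.296 in batches 1, 2 and 3. Across batches, AstroEGFR*2 correlated at 0.232 with AstroEGFR*3 *Zfp423*, and AstroEGFR*3 at 0.326 with AstroEGFR*2 *Zfp423*. Both were higher than with their own batch, so this pairing rests on the titles and shared cultures and not on the values. Single genes were tested by exact permutation (Python 3.11.15). P-values without a block measure the spread between cultures. Those of the blocked fits and of the sign-flip measure how much the differences within batches vary. PT1 and PT4 share a batch but count as separate libraries in the PT fits, blocked or not, except where they were averaged.

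All 9 members were named. Of each wider list the genes called were named, otherwise the 3 with the largest fold change, and for *Shh* and *Gli1* the 5 features most like them. *Cdon*, *Gas1*, *Dhh*, *Disp2*, *Lrp2*, *Spop* and *Igfbp6* were named after their values were seen. The members and lists were chosen with earlier results of these data known. Alternatives were a pseudocount of 0.1, no filter, median-ratio scaling, no trend, all 10 libraries in 1 fit, the block added or removed, PT1 and PT4 averaged, and leaving out libraries.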

Additional observations from a re-analysis of the deposited data

Results flagged for a closer look

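In 9 groups of 4 PT libraries, 1 for each Hedgehog gene, the gap of the highest or lowest library to its neighbour was compared with the whole range. Gaps were taken on FPKM, not on the log2(FPKM + 1) scale, on which high values stand out less. *Gli1* at 3.48 FPKM in PT1 had a gap of 0.83 of the range, just past Dixon's critical value for 4 samples. *Hhip* at 0.280 FPKM in PT4 had a gap of 0.852 of the range, at a level below the limit used for the tests. About 1 group in 20 would pass this limit by chance if the values were normally distributed, which FPKM near 0 need not be. The cause was not tested.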

How the results depend on the processing

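FPKM carry no counts, so the error of a low value cannot be given, and values under 1 FPKM are the least certain in AstroEGFR*3, whose estimated depth was the lowest of the 9 libraries with a stable estimate. In PT against AstroEGFR*, the number of features called was 152. It was 62 with all 10 libraries in 1 fit, 475 with the batch as a replicate block (146 higher, 329 lower), 61 with PT1 and PT4 averaged, 7 to 123 with 1 library left out (7 without AstroEGFR*1, 54 without AstroEGFR*3, 97, 70 and 58 without PT1, PT2 and PT4) and 8 without AstroEGFR*3 and PT3, an alternative added after seeing the data. Hedgehog members called went from 0 to 2 (*Shh* and *Ptch1*) with the block and stayed 0 otherwise. Calls in the list of ligand release and reception went from 1 to 3 with the block, to 0 or 1 with 1 library left out and to 0 without AstroEGFR*3 and PT3. Calls in the cilium list went from 1 to 2 with the block, and to 0 with all 10 libraries, with PT1 and PT4 averaged, with any 1 library left out (0 to 0) and without AstroEGFR*3 and PT3. Calls among Gli targets went to 0 with all 10 libraries and without AstroEGFR*3 and PT3, and to 0 to 2 with 1 library left out. The sign of *Smo* turned with the block (-0.0307), with PT1 and PT4 averaged (-0.0523), with 1 library left out (-0.14 to 0.14) and without AstroEGFR*3 and PT3 (-0.12). That of *Sufu* turned with 1 library left out (-0.44 to 0.24) and without AstroEGFR*3 and PT3 (0.17). The other tested members kept a lower level in PT under all 15 alternatives.

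With the *Zfp423* vector 2 features were called without the replicate block, and 0 to 51 with 1 batch left out (51 without batch 2). Without batch 3, *Gli1* and *Gli2* turned to 0.49 and 0.31. With 1 batch left out the log2 fold change of *Gli1* ran from -2.01 to 0.49, that of *Gli2* from -0.69 to 0.31 and that of *Smo* from -0.17 to 0.19, and *Smo* also turned with median-ratio scaling (0.00925). With a pseudocount of 0.1 *Gli1* moved from -0.89 to -1.71 and *Gli2* from -0.21 to -0.32. *Shh*, *Ptch1*, *Gli3*, *Boc* and *Sufu* kept their direction under all 9 alternatives, but not all kept their size. *Ptch1* ran from -1.70 without batch 1 to -0.36 without batch 2, and *Boc* from -0.91 without batch 2 to -0.11 without batch 3. The cause of these changes was not tested. The replicate block changed no other call. *Hhip* could be fitted only without the filter, at -0.10 (adjusted p = 0.850) in PT and -0.12 (0.884) with the vector.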

Other observations

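Among other genes of ligand reception, *Cdon*, *Gas1* and *Dhh*, named after their values were seen, had higher means in PT. Without the batch as a block none of them passed the adjusted threshold, and with it *Gas1* did (0.81, adjusted p = 0.0490 by limma). *Lrp2* (log2 fold change -1.88), *Gpc4* (-1.93) and *Gpc6* (-0.99) of the same list had lower means in PT. *Cdon*, a co-receptor related to *Boc*, read 5.14, 6.63 and 8.97 FPKM in AstroEGFR*1 to 3 and 48.8, 8.13, 71.6 and 13.9 FPKM in PT1 to PT4, so that 3 of the 4 PT libraries were above all astrocytes (limma log2 fold change 1.77, SE 0.71, adjusted p = 0.334). *Gas1*, a membrane-anchored co-receptor, read 32.5, 22.5 and 45.0 FPKM in AstroEGFR*1 to 3 and 54.6, 44.9, 79.3 and 52.6 FPKM in PT1 to PT4. Only PT2 reached into the astrocyte range, just below AstroEGFR*3, and the log2 fold change was 0.80 (SE 0.31, limma adjusted p = 0.319). *Dhh*, the Desert hedgehog ligand, read 2.34, 3.02 and 0 FPKM in AstroEGFR*1 to 3 and 6.97, 0.8295, 20.8 and 7.99 FPKM in PT1 to PT4, with PT2 within the astrocyte range (log2 fold change 1.62, SE 0.86, limma adjusted p = 0.467). *Ihh*, the Indian hedgehog ligand, was at or under 0.0705 FPKM in every library. *Disp1*, which releases the ligand from producing cells, was listed at 0 in all 10 libraries. *Disp2*, of the same list, had a higher mean in PT, at 0.703, 1.91 and 0.424 FPKM in AstroEGFR*1 to 3 and 1.51, 3.08, 2.49 and 2.51 FPKM in PT1 to PT4. Its log2 fold change was 0.80 (SE 0.37, limma adjusted p = 0.409), and it read 20.3 FPKM in AstroEGFR*3 *Zfp423*. Values of 0 are given here only as listed, since *Gapdh*, which all cells use, was itself listed as low as 0.0106 FPKM.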
